A study of Homo sapiens with 15 samples.

Results

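The genes for the protein subunits of the cytosolic ribosome were followed over the cell cycle of U2OS cells. Members were chosen by name, as every gene called RPL or RPS with a number and an optional A or X, together with RPLP0, RPLP1, RPLP2 and RPSA. The rule found 76 genes among the 19531 gene names in the tables, 45 for the large (60S) subunit and 31 for the small (40S) subunit. They occupied 187 of the 68625 counted regions, and regions of a gene were summed. All 76 passed the filter on low counts in every test. RPL17 is not among them, because its regions carry a name joined with that of another gene.

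A ribosome holds one copy of nearly every subunit protein, so cells make these proteins in matched amounts from many unlinked genes. Their messages are short, abundant and long-lived, and most begin with a run of pyrimidines, the 5′ terminal oligopyrimidine (TOP) tract. Through this tract mTOR signalling and the RNA-binding protein LARP1 control both the translation and the stability of the messages. The proteins are imported into the nucleus and assembled on ribosomal RNA in the nucleolus with the help of biogenesis factors.

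U2OS is a human osteosarcoma cell line. Asynchronously growing cells received 4-thiouridine, a uridine analogue built into new RNA, and the DNA precursor EdU together for 45 minutes, were fixed with glyoxal and methanol, and were sorted by EdU signal and DNA content into G1, Early S, Late S and G2 (G2/M in the protocol). RNA was alkylated, which makes 4-thiouridine read as C in sequencing (T>C), and 500 ng went into 3′ end libraries (SLAM-seq). There were 3 alkylated libraries for each of the 4 phases and 3 libraries labelled No_alkylation, whose labels name no sorted phase, 15 in all. The labels do not say whether libraries of a group came from separate cultures, so p-values measure the spread between libraries, which may be technical, and all of it comes from 1 cell line.

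The libraries held between 16096695 and 21803972 reads. T>C reads made up 21.5 to 22.8% of the reads in G1, 17.9 to 18.9% in Early S, 9.95 to 10.1% in Late S and 9.77 to 10.4% in G2, against 1.00 to 1.03% without alkylation. Of 8 markers of the bone and mesenchymal lineage of U2OS, 5 reached 1 CPM (a gene's reads scaled to a common library total) in every library and their summed level was 4498 to 6242 CPM, with TWIST1 at 0 reads and COL1A2 and RUNX2 below 1 CPM in some library. Blood markers summed to 0.568 to 5.97 CPM (CD3E at 0), endothelial markers to 0 to 1.80 CPM and epithelial markers to 11.0 to 36.6 CPM. Of the 5 epithelial markers, 2 (EPCAM and KRT14) reached 1 CPM in every library, while no blood or endothelial marker did. All 10 cell cycle markers reached 1 CPM in every library. Levels are relative to the other messages of a library, so fewer cells of a type and less RNA per cell cannot be told apart. Reads came from 3′ ends and were not set per length, so levels are compared between libraries and not between genes.

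Many reads of these genes mapped to more than one place. Ribosomal protein genes are known to have many processed pseudogenes, but where else these reads map was not tested. Between 35.6 and 38.6% of the members' reads were counted as mapping to several places, and the 76 genes held 39.3 to 43.6% of all such reads in a library. The share was 99.8% for RPL10 (chrX:154400855-154402339, plus strand, 3′ end region as deposited, hg38), 99.7% for RPL6 and 99.7% for RPS26, the 3 highest. It was under 10% for 29 members and over 90% for 16. Values of those 16 genes cannot be assigned to the gene alone and may include reads of near-identical copies. Most reads were also multimapped for RPL39 (81.4%), RPL9 (78.9%), RPL22 (78.5%), RPL13A (76.6%), RPS10 (65.1%), RPS2 (63.3%) and RPL14 (54.0%). The same limit applies to the values of these genes below.

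The start of each gene was examined for the TOP tract, since it is the feature that unites these messages. RefSeq promoters (GRCh38.p14) were found for 61 of the 76 genes, 76 start sites in all. Within 10 bases on either side of the annotated start, the letters CTTT stood on the sense strand in 41 of the 76 (53.9%) and in 9.07% of all 35116 promoters in the table. CTCT stood in 32 (42.1%) and in 10.3% of all, and at least 1 of the pair, which can overlap, in 50 (65.8%) and in 17.7% of all. On the opposite strand the shares were 3.95% for CTTT, against 6.39% of all promoters, and 5.26% for CTCT, against 10.4%. The windows below belong to a selection of the genes whose values are described in detail, with CTTT and CTCT in capitals. Each runs 5′ to 3′, with 15 bases before the start and 15 from it on.
RPS16 (chr19:39435935-39435964, minus strand): gtggcccctagCTTTcCTTTtccggttgcg
RPS14 (chr5:150449725-150449754, minus strand): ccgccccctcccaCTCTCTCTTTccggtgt
RPS24 (chr10:78033848-78033877, plus strand): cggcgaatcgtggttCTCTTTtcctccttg
RPS6 (chr9:19380222-19380251, minus strand): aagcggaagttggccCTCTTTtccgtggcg
RPL41 (chr12:56116618-56116647, plus strand): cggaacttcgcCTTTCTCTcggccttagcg
RPL13A (chr19:49487593-49487622, plus strand): cgacaaaacctcctcCTTTtccaagcggct
RPLP0 (chr12:120201097-120201126, minus strand): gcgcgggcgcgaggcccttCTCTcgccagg
RPLP1 (chr15:69452803-69452832, plus strand): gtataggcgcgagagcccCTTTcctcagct
RPLP2 (chr11:809952-809981, plus strand): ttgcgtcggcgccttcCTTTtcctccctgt
RPL14 (chr3:40457324-40457353, plus strand): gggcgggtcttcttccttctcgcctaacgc
RPS29 (chr14:49598696-49598725, minus strand): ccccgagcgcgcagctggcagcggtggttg
Of the windows printed, those of RPL14 and RPS29 hold neither set of letters. The RPL14 window still holds a run of pyrimidines across the start, so the letters do not capture every such run. Among genes described below without a printed window, RPL15, RPL4, RPS4X, RPL9 and RPL36 also had neither set within 10 bases of an annotated start. The match describes the annotated start only; start sites used in these cells were not measured.

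Most ribosomal protein messages had their highest mean level in Early S, and 55 of the 76 were lower in Late S than in Early S. Of the 76 genes, 70 differed across the 4 phases in edgeR's quasi-likelihood test (adjusted p under 0.05), where 34.1% of all 13761 genes tested did, and 70.4% of the 1371 genes with at least as many reads as the lowest member, the well-read genes. The mean level was highest in Early S for 59 members, in G1 for 16 and in G2 for 1. It was lowest in G2 for 46, in Late S for 24, in G1 for 5 and in Early S for 1. The changes were small: every fitted log2 change between neighbouring phases lay between -0.37 and 0.48. The members carried 2752 or more reads per library on average.

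**Figure D1:**
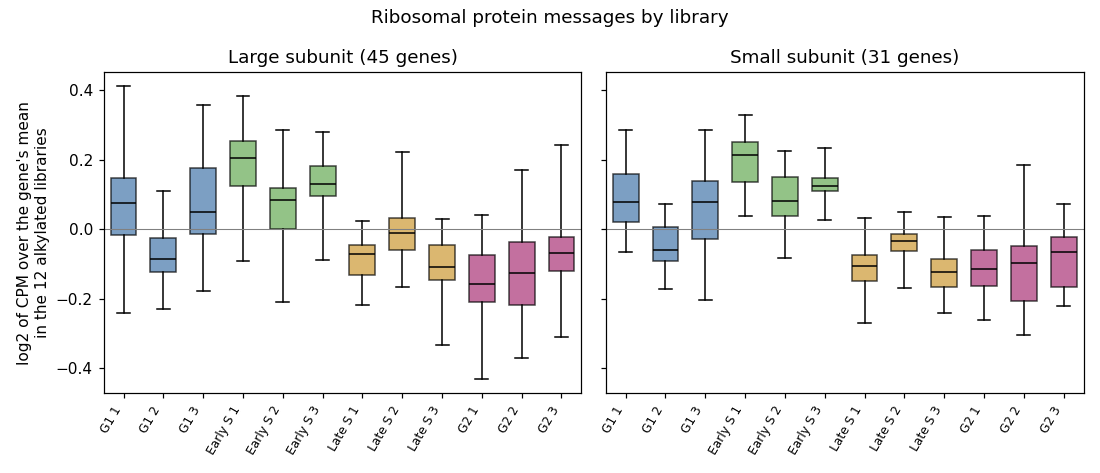
Log2 of each member's CPM over its own mean in the 12 alkylated libraries, as boxes (quartiles, median line, whiskers from lowest to highest gene) for each library, with 45 large subunit genes at left and 31 small subunit genes at right. The medians of the 3 Early S libraries are the highest in both panels and those of the Late S and G2 libraries lie below 0, while the median of G1 library 2 lies below the other 2 G1 libraries.

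From G1 into Early S, 26 members rose and 0 fell, where 12.5% of all genes tested rose and 11.8% fell (26.1% and 23.5% of the well-read genes), with a median log2 change of 0.10 over the 76 and of -0.0040 over all genes tested. In Late S against Early S, 55 members fell and 0 rose, where 4.21% of all genes fell and 7.01% rose (16.6% and 14.2% of the well-read genes). The median log2 change was -0.21 for the 76 and -0.03 for all genes tested, and 75 of the 76 estimates were below 0. The exception, RPL12, a protein at the base of the stalk, had 137, 169 and 141 CPM in Late S, against 136, 139 and 136 CPM in Early S (log2 0.12 ± 0.11 SE, adjusted p = 0.564), the ranges overlapping and Late S library 2 standing highest; it was singled out after its values were seen. The count of members lower in Late S depended on single libraries: it was 24 without Late S library 3, 31 without Late S library 1 and 33 without Early S library 1, all lower. In Early S against G1 it was 17 higher and 2 lower without Early S library 1, and 19 higher and 5 lower without G1 library 2.

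In G2 against Late S no member passed the test (0 of 76, where 0.145% of all genes did), although 13 had an unadjusted p under 0.05, 2 of them higher and 11 lower. DESeq2 called 1 member lower there. Closing the cycle, G1 against G2, 34 members were higher and 1 lower, where 9.96% of all genes were higher and 11.1% lower (25.2% and 18.7% of the well-read genes), with a median log2 difference of 0.12 over the 76 and 0.01 over all genes tested. Each contrast shares libraries with its neighbours, so a high Early S library enters the first 2 contrasts with opposite signs.

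**Figure D2:**
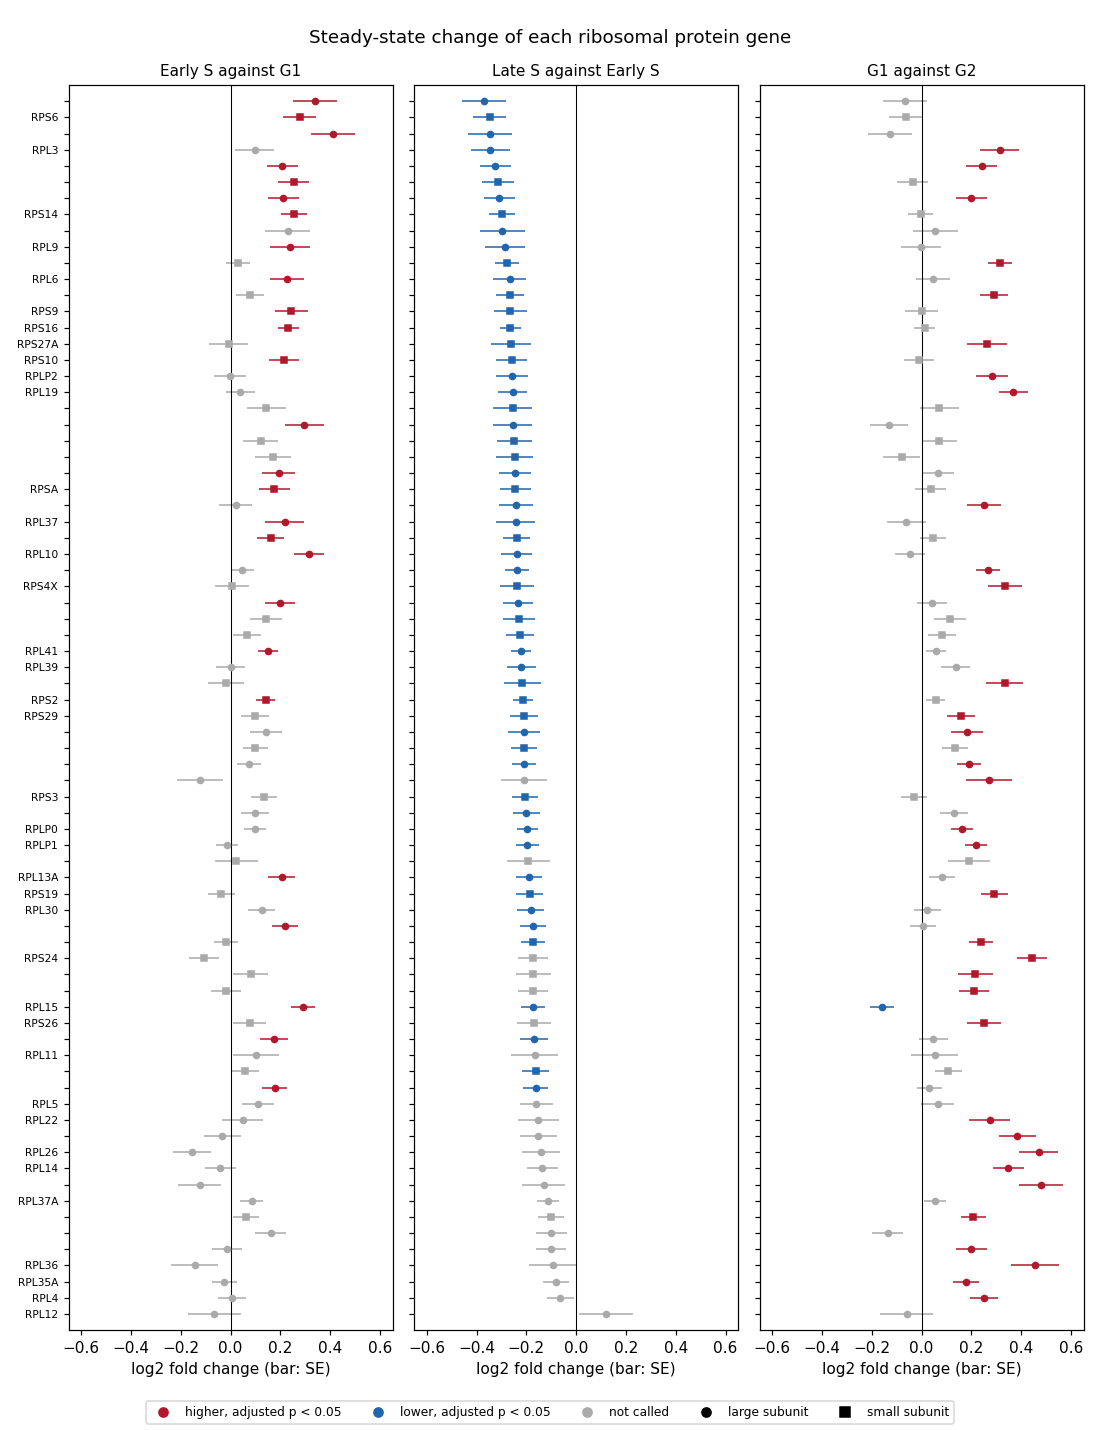
Fitted log2 fold change of the steady-state level for each of the 76 genes with its standard error, in 3 contrasts, sorted by the change in Late S against Early S, with names at the genes given in the text. Red and blue mark adjusted p under 0.05: 26 higher in Early S against G1, 55 lower in Late S against Early S, and 34 higher and 1 lower in G1 against G2.

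Among the small subunit genes, RPS16, a protein of the 40S head, showed the Early S peak in every library. It had 3221, 3137 and 3116 CPM in G1, 3743, 3752 and 3627 CPM in Early S, 3111, 3188 and 2962 CPM in Late S and 3209, 3060 and 3124 CPM in G2. All 3 Early S libraries lay above the 9 others, which overlapped one another, and the log2 change was 0.23 ± 0.04 (SE) in Early S against G1 (adjusted p = 6.89e-05) and -0.26 ± 0.04 in Late S against Early S (adjusted p = 2.45e-05). RPS14, a platform protein whose loss of one copy underlies the anaemia of the 5q- syndrome, had 3023, 3069 and 2634 CPM in G1, 3722, 3338 and 3358 CPM in Early S, 2881, 2885 and 2708 CPM in Late S and 2953, 2799 and 3001 CPM in G2. The Early S libraries were again the highest, with a log2 change of -0.30 ± 0.05 in Late S (adjusted p = 5.96e-05). RPS6, the classic substrate of the S6 kinases downstream of mTOR, had 591, 574 and 599 CPM in G1, 731, 722 and 683 CPM in Early S, 569, 582 and 528 CPM in Late S and 568, 636 and 641 CPM in G2. Its Early S libraries lay above all others, by log2 0.28 ± 0.07 over G1 (adjusted p = 0.00147), and in Late S against Early S the log2 change was -0.35 ± 0.07 (adjusted p = 2.29e-04).

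In other members the G1 and Early S libraries overlapped. RPS24, a protein of the 40S body mutated in some families with Diamond-Blackfan anaemia, had 3305, 2727 and 3308 CPM in G1, 3209, 2563 and 2898 CPM in Early S, 2493, 2614 and 2575 CPM in Late S and 2284, 2259 and 2330 CPM in G2. All 3 G1 libraries lay above the G2 libraries (log2 0.44 ± 0.06 SE, adjusted p = 2.44e-07), the smallest p among members in that contrast. RPS19, the gene most often mutated in Diamond-Blackfan anaemia, averaged 2120 ± 139.6 CPM in G1 and 1732 ± 121 CPM in G2 (SD, n = 3 each), and G1 was higher by log2 0.29 ± 0.05 (adjusted p = 6.92e-05).

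The remaining small subunit genes fixed by name moved by similar amounts. RPS2, which lies at the mRNA entry channel, averaged 4581 ± 106 CPM in Late S and 5316 ± 74.8 CPM in Early S (log2 -0.21 ± 0.04, adjusted p = 1.32e-04). RPSA, which doubles as the laminin receptor precursor, averaged 1177 ± 79.2 CPM in Late S and 1395 ± 51.0 CPM in Early S (log2 -0.24 ± 0.06, adjusted p = 0.00589). Of its reads 97.3% were multimapped, so this change cannot be assigned to RPSA alone. RPS3, a mRNA entry protein that also acts in DNA repair, fell by a log2 change of -0.21 ± 0.05 (adjusted p = 0.00618). RPS4X, whose gene escapes X inactivation, and RPS27A, which is made as a fusion with ubiquitin, were both higher in G1 than in G2, by log2 0.34 ± 0.07 (adjusted p = 2.81e-04) and 0.26 ± 0.08 (adjusted p = 0.0152).

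In the large subunit, RPL41, the shortest ribosomal protein, had 12855, 12162 and 11404 CPM in G1, 13027, 13975 and 13396 CPM in Early S, 11285, 11989 and 11372 CPM in Late S and 12228, 10859 and 11926 CPM in G2. The Early S libraries were the highest, and Late S was lower than Early S by a log2 change of -0.22 ± 0.04 (adjusted p = 8.99e-05), and 98.7% of its reads were multimapped. RPL10, which is loaded late onto the 60S subunit in the cytoplasm, had 1594, 1426 and 1430 CPM in Early S, against 1223, 1117 and 1239 CPM in G1 (log2 0.31 ± 0.06, adjusted p = 1.08e-04), and nearly all of its reads were multimapped too. Without multimapped reads RPL10 stood at log2 0.48 (adjusted p = 0.702). RPL3, which reaches toward the peptidyl transferase centre, averaged 625 ± 19.4 CPM in Late S and 794 ± 104 CPM in Early S (log2 -0.35 ± 0.08, adjusted p = 0.00217). Of its reads 98.7% were multimapped, so this change cannot be assigned to RPL3 alone.

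RPL15 was the member that was lower in G1 than in G2. It had 1844, 1855 and 1789 CPM in G1, 2231, 2187 and 2300 CPM in Early S, 1960, 2057 and 1947 CPM in Late S and 2051, 1973 and 2098 CPM in G2, so that every G1 library lay below every other library. The log2 change was 0.29 ± 0.05 in Early S against G1 (adjusted p = 1.07e-05) and -0.16 ± 0.05 in G1 against G2 (adjusted p = 0.0149). The G1 against G2 call was lost without G1 library 3 or without G2 library 3 (log2 -0.14 in each). Its reads came almost wholly from one 3′ end region at chr3:23919196-23920977 (hg38), and 30.5% of all its reads were multimapped.

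The acidic stalk recruits the translation factors to the 60S subunit. RPLP0, its anchor, averaged 3796 ± 109 CPM in Late S and 4349 ± 127 CPM in Early S (log2 -0.20 ± 0.04, adjusted p = 0.00145). RPLP1 and RPLP2, which bind it as dimers, fell by log2 changes of -0.20 ± 0.05 (adjusted p = 0.00264) and -0.26 ± 0.06 (adjusted p = 0.00585). All 3 were also higher in G1 than in G2, by log2 0.16 to 0.28. RPL5 and RPL11, which carry 5S ribosomal RNA into the ribosome and bind MDM2 when assembly fails, passed the level test in no contrast. RPL5 had 667, 724 and 655 CPM in Late S and 826, 714 and 746 CPM in Early S (log2 -0.16 ± 0.07, adjusted p = 0.118), with overlapping ranges. RPL11 had 262, 309.9 and 264 CPM in Late S and 308, 299 and 331 CPM in Early S (log2 -0.17 ± 0.09, adjusted p = 0.282).

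Around the peptide exit tunnel, 8 of the 9 listed genes were measured, and 6 of them were higher in G1 than in G2 (9.96% of all genes tested, 25.2% of the well-read genes) while 3 fell in Late S (4.21% and 16.6%). RPL26, at the tunnel rim, had 2106, 1522 and 2073 CPM in G1, against 1407, 1308 and 1402 CPM in G2 (log2 0.47 ± 0.08, adjusted p = 1.06e-05). RPL19 had 1322, 1210 and 1381 CPM in G1, against 1014, 985 and 1034 CPM in G2 (log2 0.37 ± 0.06, adjusted p = 5.46e-06). RPL4, which reaches into the tunnel, averaged 1543 ± 61.2 CPM in G1 and 1297 ± 33.8 CPM in G2 (log2 0.25 ± 0.05, adjusted p = 6.33e-04). RPL22 was higher by log2 0.27 ± 0.08 (adjusted p = 0.0128), while RPL39 stood at log2 0.14 ± 0.06 (adjusted p = 0.0935).

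Counts were similar in the 2 subunits, and the difference between them was not tested. In Late S against Early S, 30 of 45 large and 25 of 31 small subunit genes fell, with median log2 changes of -0.20 and -0.23. Of all genes tested 4.21% fell, and of the well-read genes 16.6%. In Early S against G1, 17 of 45 and 9 of 31 rose, with a median of 0.10 in each. There 12.5% of all genes and 26.1% of the well-read genes rose, so the small subunit count lies near the well-read share. In G1 against G2, 21 of 45 and 13 of 31 were higher, with medians of 0.13 and 0.11. Of all genes 9.96% were higher there, and of the well-read genes 25.2%. Within the 40S, 13 of 14 head, 6 of 8 platform and mRNA channel and 6 of 8 body genes fell in Late S, against 16.6% of the well-read genes.

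Reads of the large subunit genes summed to 6.63 to 7.79% of an alkylated library and those of the small subunit genes to 4.85 to 5.76%. Their ratio, large over small, was 1.37 ± 0.00198 in G1, 1.37 ± 0.0166 in Early S, 1.39 ± 0.00688 in Late S and 1.37 ± 0.0186 in G2 (SD, n = 3 each), and 1.33 ± 0.0104 without alkylation. The ranges of the phases overlapped in part, and no test was made of the ratio. The ratio counts 3′ end reads and not molecules per ribosome, and over the 12 alkylated libraries it was 1.24 without multimapped reads, 1.52 over members under 10% multimapped and 1.33 over the main region of each gene, against 1.38 as counted.

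**Figure D3:**
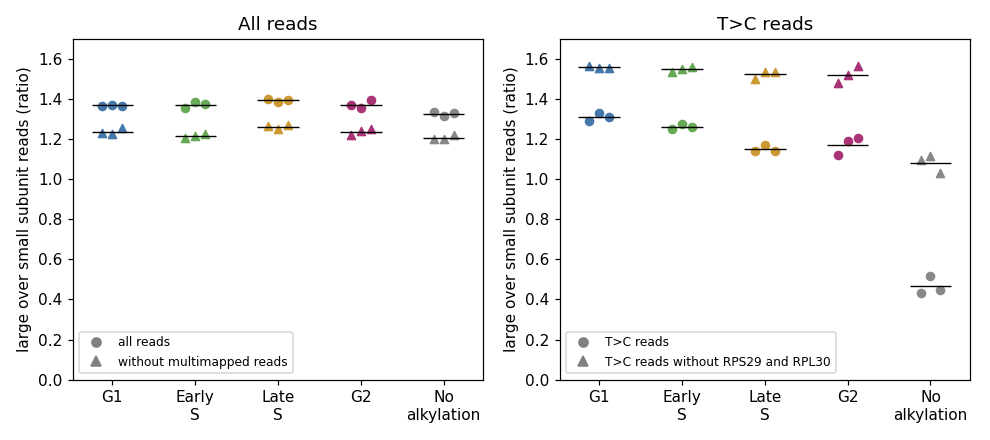
Ratio of large to small subunit reads in each library (points) with group means (lines), from all reads at left and T>C reads at right, for the 4 phases and No_alkylation. From all reads the phase means lie between 1.37 and 1.39, and the T>C ratio is 1.15 to 1.31 in the phases and 0.466 without alkylation, or 1.52 to 1.56 and 1.08 once RPS29 and RPL30 are left out.

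Members with few and with many multimapped reads were counted apart. Among the 29 members under 10% multimapped, 18 fell and 0 rose in Late S against Early S (median log2 -0.20), where 16.6% of the well-read genes fell. In the same 29, 5 rose in Early S against G1, near the shares of 12.5% of all genes and 26.1% of the well-read genes, and 17 were higher in G1 than in G2 (25.2% of the well-read genes). Among the 47 others, 37 fell in Late S (median log2 -0.23), 21 rose in Early S, and 17 were higher and 1 lower in G1 than in G2. Most of the 26 members that rose in Early S were thus among those with 10% or more multimapped reads, and the difference between the 2 sets was not tested. With multimapped reads taken out of every gene, 36 members fell in Late S (4.01% of all genes) and 14 rose in Early S (12.3% of all genes).

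Other genes of the ribosome's life cycle gave a mixed picture. Subunit proteins encoded by genes outside the name rule include FAU and RACK1, and both fell in Late S. The log2 change was -0.21 ± 0.05 for FAU, a ubiquitin-like fusion with a 40S protein (adjusted p = 0.00418) and -0.18 ± 0.06 for RACK1, a 40S scaffold (adjusted p = 0.0315). Of 20 other TOP messages tested, FAU and RACK1 included, 5 fell and 0 rose in Late S, where 4.21% and 7.01% of all genes tested did (16.6% and 14.2% of the well-read genes). In G1 against G2, 11 of the 20 were higher and 3 lower, where 9.96% and 11.1% of all genes were (25.2% and 18.7% of the well-read genes). TPT1, a translationally controlled TOP message, fell with a log2 change of -0.22 ± 0.05 (adjusted p = 9.62e-04), but the elongation factor message EEF1A1 rose in Early S by log2 0.69 ± 0.05 (adjusted p = 1.47e-15) and stood at -0.08 ± 0.04 in Late S (adjusted p = 0.245). Of 72 mitochondrial ribosomal protein genes tested, 5 fell and 3 rose in Late S, with a median log2 change of -0.02. These counts lie near the shares of all genes tested, 4.21% lower and 7.01% higher.

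Of 30 ribosome biogenesis factors tested, 21 were lower and 0 higher in Early S than in G1 (median log2 -0.49), where 11.8% of all genes were lower and 23.5% of the well-read genes. In Late S against Early S 16 of them were higher and 0 lower (median 0.34), where 7.01% of all genes were higher and 14.2% of the well-read genes. NCL, the nucleolar protein nucleolin, averaged 615 ± 18.8 CPM in Early S and 948 ± 10.3 CPM in G1 (log2 -0.62 ± 0.06, adjusted p = 5.64e-11). LARP1, the TOP-binding repressor and stabiliser, was lower in Early S than in G1, with a log2 change of -0.73 ± 0.08 (adjusted p = 1.49e-09) and higher in Late S than in Early S by 0.64 ± 0.08 (adjusted p = 1.27e-07). MYC, which drives transcription of ribosomal protein and biogenesis genes, averaged 63.1 ± 9.51 CPM in G1 and 21.1 ± 3.87 CPM in G2 (log2 1.58 ± 0.18, adjusted p = 8.19e-09). MTOR itself stood at log2 -0.08 ± 0.22 in Late S against Early S (adjusted p = 0.889). LARP1, MYC and MTOR belong to a list of 15 regulators of TOP messages. The others are not reported here, so these genes do not stand for the list. The nuclear importer IPO7 rose in Late S by 0.68 ± 0.09 (adjusted p = 2.33e-07), and of the 9 chaperones and importers 3 rose and 0 fell in that contrast, where 7.01% of all genes rose and 14.2% of the well-read genes.

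The labelled share is the percentage of a gene's reads that carry T>C, and it was low for ribosomal protein genes. The median member had 8.61% in G1, 6.93% in Early S, 4.94% in Late S and 5.36% in G2, against 0.511% without alkylation. The median gene with at least 100 reads had 26.6%, 20.3%, 10.0% and 9.66% in the same order, and 0.536% without alkylation. In G1 all 76 members lay below the median gene, and in G2 72 did. The members' reads also covered fewer T positions, 13.3 per read in G1 for the median member and 19.3 for the median gene. Per covered T, 1.05% were converted in G1 for the median member and 2.74% for the median gene, a gap in the same direction.

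As a raw percentage, the share was lower in later phases for most members. The mean was lower in Early S than in G1 for 72 of 76 genes, with no overlap between libraries for 59, where 25.9% of the 10044 genes with at least 100 reads and 43.8% of the well-read genes were lower without overlap. It was lower in Late S than in Early S for 74 of 76 genes, with no overlap for 66 (60.3% of genes with at least 100 reads, 91.7% of the well-read genes). It was higher in G1 than in G2 for all 76, with no overlap for 70 (75.6% and 94.4%). In both of these contrasts nearly all well-read genes moved the same way, and so did the T>C share of the libraries as a whole. RPS16 had 8.68, 8.58 and 8.49% in G1, 6.98, 6.63 and 6.97% in Early S, 4.01, 4.16 and 4.71% in Late S and 4.19, 4.14 and 4.37% in G2. RPLP2, among the 4 lowest in G1, had 5.75, 5.93 and 5.58% in G1 and 3.78, 2.66 and 3.56% in G2. The lowest was RPL36, with 2.24, 2.13 and 2.44% in Early S and 3.67, 4.46 and 4.39% in G1, and RPS10 and RPS3 followed with means of 5.24 ± 0.0607% and 5.48 ± 0.187% in G1. At the upper end RPL37 had 17.7, 20.3 and 17.3% in G1 and RPL13A had 15.4, 15.5 and 14.8%.

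**Figure D4:**
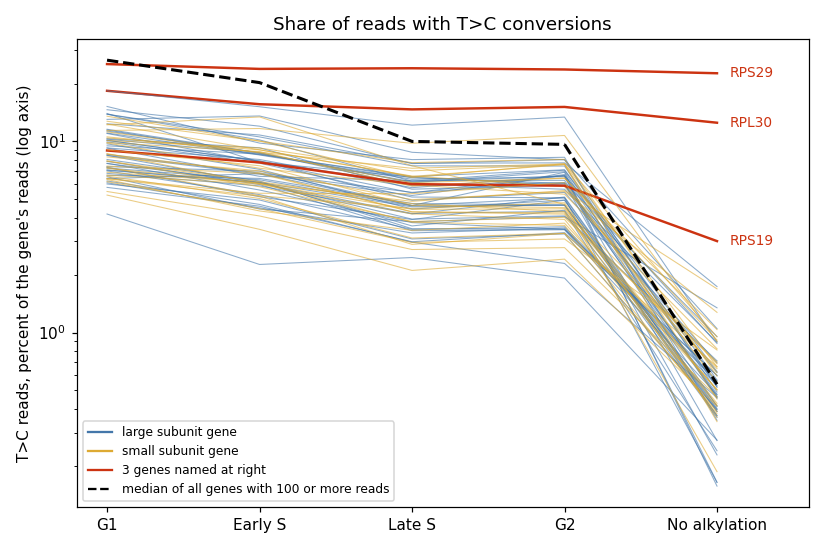
Percentage of each member's reads with T>C conversions (mean of 3 libraries, log axis) in the 4 phases and in No_alkylation, with the median of all genes with 100 or more reads as a dashed line. Nearly all members lie below the median gene in the phases and at 0.157 to 1.74% without alkylation, apart from RPS29, RPL30 and RPS19.

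The libraries without alkylation set the background for each gene. Scaled by all reads, 75 of the 76 members had more T>C reads in alkylated libraries (edgeR, where 83.8% of all 12909 genes did), with a median log2 difference of 3.64. This direction rests on the scaling: with TMM factors of the T>C reads, which equalise the total label, 4 members were higher and 58 lower (of all genes 31.1% were called, 9.34% lower). RPS29, a zinc-binding protein of the 40S head, was the exception under the first scaling. It had 26.1, 24.5 and 25.7% T>C reads in G1 and 24.0, 23.1 and 24.4% in G2, against 22.6, 21.5 and 24.2% without alkylation (log2 0.13 ± 0.07 SE, adjusted p = 0.0972). RPL30 had 19.3, 18.3 and 17.6% in G1, against 12.6, 12.2 and 12.8% without alkylation, and RPS19 had 9.73, 8.43 and 8.75% in G1, against 2.57, 3.14 and 3.32% without alkylation. The RPL30 difference, log2 0.40 ± 0.10, passed the test (adjusted p = 3.17e-04). T>C reads of these 3 genes were thus frequent without alkylation.

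These background reads lay mostly in 1 region of each gene. In RPS29, the region at chr14:49583572-49583666 (hg38, minus strand) held 98.6% of the reads and 22.8 ± 1.37% T>C reads without alkylation, while the small region at chr14:49570984-49577811, with 1.44% of the reads, had 79.5 ± 0.551% in G1 and 0.470 ± 0.101% without alkylation (SD, n = 3). In RPL30 the region with 78.8% of the reads had 15.9 ± 0.693% without alkylation and that with 20.4% of the reads had 0.648 ± 0.193%. In RPS19 the values were 4.50 ± 0.615% at chr19:41871378-41872926 and 0.418 ± 0.0650% at chr19:41869031-41869192. The deposited count of converted T positions did not show the excess in RPS29 or RPL30, with 0.0274% and 0.0379% of covered T positions converted without alkylation, close to the 0.0352% of the median member; in RPS19 it was 0.310%. Why the 2 deposited counts differ was not tested.

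T>C reads were next compared as a level of new RNA. Counted against the other T>C reads of the same library (TMM), 28 members differed across the phases, where 10.4% of all 11433 genes tested did (27.7% of the well-read genes). In Late S against Early S 8 members were higher and 0 lower, where 1.61% of all genes were higher and 1.83% lower (3.72% of the well-read genes were higher), with a median log2 change of 0.16; leaving out single Early S or Late S libraries gave 4 to 9. In G1 against G2 25 were lower and 0 higher, where 4.29% of all genes were lower and 2.93% higher (12.2% of the well-read genes were lower), with a median of -0.30. In Early S against G1 3 rose (RPS29, RPL15 and RPL9), where 3.66% of all genes rose and 1.5% fell. This is near the share of all genes, and 12.4% of the well-read genes rose. Each of leaving out Early S library 1, Early S library 3 or G1 library 1 left 1. RPS29 and RPL30, with 22.8% and 12.5% T>C reads without alkylation, were also called in Late S against Early S and in G1 against G2. With that background subtracted, the change of RPS29 in Early S against G1 had the opposite sign. In G2 against Late S 0 members passed, by edgeR or by DESeq2, where 0.0525% of all genes did by edgeR. An unadjusted p under 0.05 was found for 8 members by edgeR and for 10 by DESeq2.

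The direction of these new RNA changes turned with the scaling. Scaled by all reads, which keeps the fall in total label, 71 members were lower in Late S than in Early S, where 36.1% of all genes were, and the median log2 change was -0.74 for the members and -0.91 for all genes. In the same scaling 71 members were higher in G1 than in G2, where 53.2% of all genes were, with medians of 0.94 and 1.28. RPL9, whose product sits at the 60S stalk side, rose in Early S by log2 0.62 ± 0.17 among T>C reads (adjusted p = 0.0271) and stood at log2 0.30 (adjusted p = 0.380) with all reads as the scale. Its call was lost in 4 of the 12 fits that leave out 1 library, with log2 values of 0.51 to 0.77 over the 12. RPL15 rose by log2 0.32 ± 0.09 (adjusted p = 0.0240) and stood at log2 0.0055 with all reads as the scale, and 5 of the 12 fits lost its call (log2 0.28 to 0.35). It had 1483, 1464 and 1403 T>C CPM (T>C reads scaled to a common T>C total) in Early S, against 1178, 1207 and 1101 in G1.

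Relative to other genes, the labelled share of ribosomal protein genes rose in Late S. The fit takes each gene's odds of T>C against other reads after the change common to the library has been removed. Members differed across the phases in 73 of 76 cases, where 14.9% of all 11429 genes tested did (47.0% of the well-read genes). In Late S against Early S 61 were higher and 0 lower, where 2.08% of all genes were higher and 6.08% lower (11.3% of the well-read genes were higher), and the median log2 change was 0.58 for the 76 and -0.13 for all genes tested. All 76 estimates were above 0. In G1 against G2 68 were lower and 0 higher, where 4.22% of all genes were lower and 4.58% higher (22.5% of the well-read genes were lower), with medians of -0.71 and 0.20.

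This is a relative statement, and scaled by all reads it turns: 64 members were then lower in Late S, where 43.6% of all genes were (median log2 -0.55, all genes -1.26) and 70 were higher in G1 than in G2, where 62.4% of all genes were (0.84, all genes 1.76). With the gene's own reads as an offset in place of odds, 40 members were higher in Late S (3.38% of all genes) with a median of 0.41, and 53 were lower in G1 than in G2 (7.98% of all genes) with a median of -0.45. With the No_alkylation share subtracted as well, the counts were 33 (3.26% of all genes) and 41 (7.43%). With converted T positions in place of T>C reads they were 27 (1.44% of all genes) and 38 (3.76%), in the same directions.

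**Figure D5:**
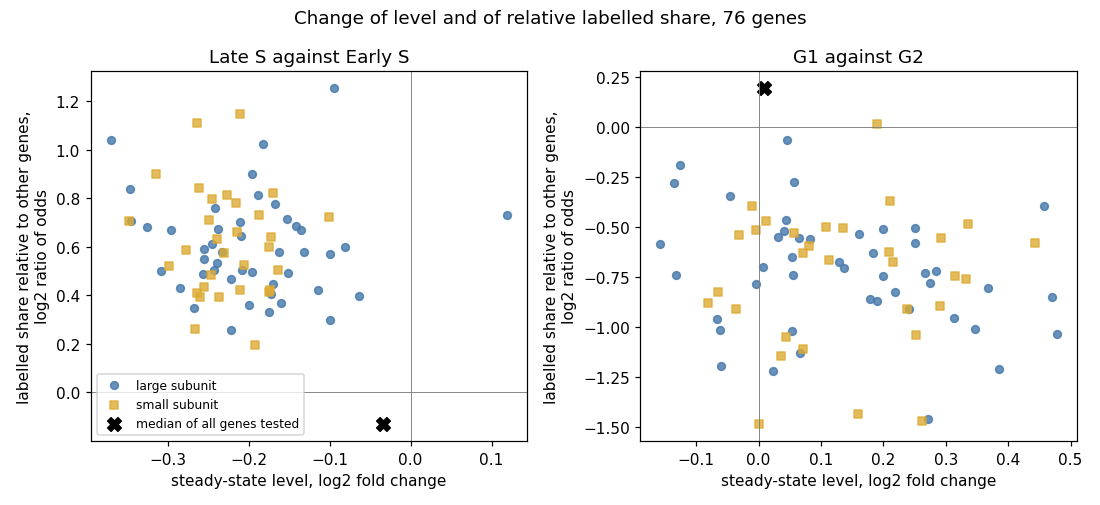
Fitted log2 change of the steady-state level (x) and of the labelled share relative to other genes (y, log2 ratio of odds) for each of the 76 genes, in Late S against Early S at left and G1 against G2 at right, with the median of all genes tested as a cross. In Late S every member lies above 0 on the y axis and all but RPL12 below 0 on the x axis; scaled by all reads the y values take the opposite sign in most genes, with medians of -0.55 at left and 0.84 at right.

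Large and small subunit genes again gave similar counts, 34 of 45 and 27 of 31 higher in Late S (medians 0.58 and 0.60) and 39 of 45 and 29 of 31 lower in G1 than in G2 (medians -0.73 and -0.66). Of all genes tested, 2.08% were higher in Late S and 4.22% lower in G1 than in G2. The well-read genes gave 11.3% and 22.5%. RPLP1 had 3.64, 3.75 and 4.02% in Late S and 4.69, 4.04 and 4.56% in Early S, so its raw share was lower in Late S while its relative share was higher by log2 0.90 ± 0.08 (adjusted p = 2.14e-08). Without alkylation RPLP1 had 1.35% T>C reads, a background that these values include. RPL13A, better known for silencing transcripts in inflamed monocytes once it leaves the ribosome, was the member called with a lower relative share in Early S. It had 9.79, 10.00 and 9.64% in Early S, against 15.4, 15.5 and 14.8% in G1 (log2 -0.33 ± 0.09, adjusted p = 0.0314), and then 7.92, 8.22 and 7.98% in Late S (log2 0.81 ± 0.09 against Early S, adjusted p = 1.51e-06). The Early S call of RPL13A was lost without Early S library 1, Early S library 3, G1 library 1 or G1 library 2, with log2 values of -0.40 to -0.19 over the 12 fits. RPL14 had 6.44, 6.21 and 6.57% in Early S, against 6.92, 6.13 and 6.92% in G1, with overlapping ranges and a relative difference of log2 0.34 ± 0.09 (adjusted p = 0.0278), a call lost without Early S library 2 or G1 library 1. In Early S against G1 the full count was 2 higher and 1 lower, where 5.33% of all genes and 20.5% of the well-read genes were called, and it changed in direction under several settings. In G2 against Late S it was 0, where 0.0437% of all genes were called, with 8 members at an unadjusted p under 0.05.

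RPS9 had the lowest fitted difference in relative share between G1 and G2. This 40S body protein had 6.50, 6.94 and 5.75% in G1 and 6.50, 6.13 and 5.65% in G2, overlapping raw values, and the relative difference was log2 -1.48 ± 0.17 (adjusted p = 8.40e-07). RPS27A had 13.2, 9.72 and 11.4% in G1 and 10.1, 11.5 and 10.6% in G2 (log2 -1.47 ± 0.16, adjusted p = 3.91e-07). RPS6 had 12.7, 11.7 and 13.9% in G1 and 7.89, 8.13 and 8.17% in G2 (log2 -0.82 ± 0.14, adjusted p = 3.80e-04). RPS29 and RPL30 had among the smallest p in these contrasts, and they were also the members with the highest background. The raw share of RPS29 averaged 25.4 ± 0.820% in G1, 24.0 ± 1.16% in Early S, 24.2 ± 0.905% in Late S and 23.8 ± 0.658% in G2. With converted T positions RPS29 stood at log2 0.77 ± 0.10 in Late S against Early S (adjusted p = 5.00e-04) and RPL30 at 0.16 ± 0.14 (adjusted p = 0.646). With the No_alkylation share subtracted, the adjusted p in that contrast was 0.122 for RPS29 and 0.147 for RPL30.

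Regions of one gene differed in label as well, as in 2 genes chosen after their values were seen. RPL37A had 45.8% of its reads at chr2:216499959-216500031 and 53.6% at chr2:216501341-216504086 (hg38). The first region carried 3.67 ± 0.830% T>C reads in G1 and the second 7.52 ± 0.121% (SD, n = 3), with 9.93 and 13.3 covered T positions per read. RPL35A, with 47.7% and 52.2% of its reads in its main regions, had 8.16 ± 0.905% at chr3:197954003-197954147 and 12.3 ± 0.452% at chr3:197955750-197956610, and the second region again held more T positions per read (20.8 and 11.5). These are descriptions without a test, and T content moves with the share in both genes.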

How the data were processed

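Counts were deposited per region of the merged 3′ end annotation for 15 libraries: all reads, T>C reads, multimapped reads and converted T positions. They were made with slamdunk 0.2.4 on hg38, per the file headers and the submitters' processing notes. Regions were summed by gene name. Total reads ranged from 16096695 to 21803972 per library, and the number of reads limits the precision of each share.

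Levels were tested with edgeR 4.0.16 (quasi-likelihood, TMM factors, filterByExpr at 10 reads and 15 in total, Benjamini-Hochberg over all genes tested, adjusted p under 0.05) on the 12 alkylated libraries, for all reads and for T>C reads, in 4 contrasts of neighbouring phases. The labelled share was fitted with T>C and other reads as separate columns, a library term and TMM factors for each kind. Alkylated libraries were set against No_alkylation on the scale of all reads. DESeq2 1.42.0, other scalings, background subtraction, multimapped reads, region choice, a replicate block and leaving out each library were alternatives. The procedures were tested on simulated data.

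Named genes were up to 4 called members per contrast and direction with the smallest p, the extremes of labelled share, multimapping and background, and a fixed list of well-known members; a few of these are not reported here. The members and lists were chosen with earlier results of these data known. R 4.3.3, limma 3.58.1, Python 3.11.15, pandas 2.3.3 and matplotlib 3.10.9 were used.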

Additional observations from a re-analysis of the deposited data

How the results depend on the processing

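Calls and directions stayed within 1.5 times and on the same side with RLE size factors, no filter, the region with the most reads for each gene and scaling without the ribosomal protein genes, in the counts of members called. Of 651 alternative values of 32 named calls, 587 kept direction and side, 43 missed the threshold and 21 changed direction. The 651 include, for each call, 12 fits that left out 1 library, and no named call changed direction in those. All 21 changes of direction thus came from other processing, 16 of them from scaling by all reads. Scaled by all reads, counts turned to 71 lower (Late S against Early S) and 71 higher (G1 against G2) for T>C levels, 12 lower in Early S against G1 and 73 across phases, and for the share to 34 lower, 64 lower and 70 higher. TMM factors for alkylated against No_alkylation gave 62 called. For the share in Early S against G1, 1 was called with converted T positions or with no library term, 3 less background, 5 as a share of all reads and 2 with both. The share counts were 27, 40 and 33 in Late S against Early S with converted T positions, as a share of all reads and that less background, and 38 and 41 in G1 against G2 with converted T positions and as a share of all reads less background. DESeq2 gave 6 and 16 for T>C levels in Early S against G1 and Late S against Early S, where background subtraction gave 5, and 1 for the level in G2 against Late S. Without multimapped reads 14 and 36 members were called for the level, and the subunit ratio was 1.24, 1.52 and 1.33 in its alternatives.

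Leaving out single libraries gave 57 to 72 for the level across the phases. In G1 against G2 the level gave 25 to 39, the lowest without G1 library 1. It gave 24 to 58 in Late S against Early S and 19 to 27 in Early S against G1. T>C levels gave 4 to 9 in Late S against Early S and 1 to 3 in Early S against G1. In G2 against Late S there were 0 to 1 for T>C levels and for the share (without G2 library 2). The share in Early S against G1 gave 1 to 6. Its 1 call without Early S library 2 was lower, it was 1 without G1 library 1 and 6 without G1 library 2.

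Less background, RPS29 stood at -0.75 (T>C level, Early S against G1), 0.23 (G1 against G2) and -1.14 (share, Early S against G1), and as a share of all reads less background at -0.79 and 0.052 (share, G1 against G2). Scaled by all reads, T>C levels in Late S against Early S were -0.20 for RPS29, -0.27 for RPL30, -0.42 for RPLP1 and -0.48 for RPL13A, and in G1 against G2 0.25 for RPS29, 0.30 for RPL30 and 0.072 for RPS9. The share was then -0.11 for RPS29 and -0.057 for RPL14 in Early S against G1, -0.23 for RPLP1, -0.11 for RPL30 and -0.32 for RPL13A in Late S against Early S, and 0.12 for RPS29, 0.34 for RPL30, 0.55 for RPL14 and 0.73 for RPLP1 in G1 against G2. The cause was not tested.

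Libraries of the same number deviated together with correlations of -0.03 to 0.09. Counting noise in single genes can lower such correlations, so they cannot show whether the numbers pair the libraries. With the replicate block 72, 31, 59, 0 and 36 members were called for the level across phases and in the 4 contrasts in order. Without it the counts were 70, 26, 55, 0 and 35. For T>C levels they were 31, 3, 10, 0 and 28 with the block and 28, 3, 8, 0 and 25 without it.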
